A study of Mus musculus with 2 samples.

Results

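The 10 genes described here make bile acids or control how much is made: Cyp7a1 and Cyp8b1 of the classical pathway, Cyp27a1 and Cyp7b1 of the alternative pathway, Hsd3b7 and Akr1d1 of the ring steps that both pathways share, Slc27a5 and Baat of conjugation, and the nuclear receptors Nr1h4 (FXR) and Nr0b2 (SHP). They were chosen by gene symbol, and all 10 were found among the 32285 genes counted. Livers of mice given HFCFD (high in fat, in cholesterol and in fructose, with 40% in the label) for 2 weeks were taken apart into cells, whose RNA was sequenced in droplets as 3′ tags. The labels name 1 sample as Cebp KO and 1 as Cebp WT. Per the study's methods, Cebpa was removed from hepatocytes by crossing Cebpa fl/fl with Albumin-cre or with Albumin-ERT2-cre animals, backcrossed to C57BL/6N, and the study names the Albumin-cre line (Cebpa ΔHep) for its mice on 2 weeks of the diet. Controls of these crosses were Cebpa fl/fl mice, and the study used males alone. Age was not stated for these mice in the labels or in the study's main text. Cells were freed by perfusion and digestion and purified on Percoll, which can set the share of each cell type recovered.

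Both samples share 1 matrix of counts of unique molecular identifiers (UMIs, each standing for 1 captured molecule), in which every barcode ends in 1 or 2. Nothing in the labels links these endings to a genotype, so the libraries are called library 1 and library 2 by the ending, and no knockout effect is given. With 1 library each and cells that are no replicates, differences have no replicate check and no test. A level is given as UMIs per 1000000 UMIs of the same cells (CPM) with an exact Poisson 95% interval, and a share with an exact binomial 95% interval, both of which cover counting error alone. Since 3′ tags are not scaled to gene length, a level was compared for the same gene between libraries, depths and cell classes, and not between genes.

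Bile acids are made from cholesterol in hepatocytes, and this is a main route by which cholesterol leaves the body. The classical pathway opens with hydroxylation of cholesterol by Cyp7a1, while the alternative pathway opens with oxidation of the side chain by Cyp27a1, a mitochondrial enzyme that many cell types carry, followed by Cyp7b1. Bile acids returning to the liver bind FXR, which raises SHP and lowers Cyp7a1 and Cyp8b1, and Cyp7a1 is known to be highest in hepatocytes near the central vein.

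Most hepatocyte-like droplets were shallow. After the filters 11617 cells of library 1 and 6088 of library 2 remained, of which 8017 and 3728 were hepatocyte-like, with medians of 1127 and 1370.5 UMIs. Of these, 508 and 514 held at least 5000 UMIs and are called deep, with medians of 27261 and 13444.5 UMIs and 17.4% and 15.6% of UMIs from mitochondrial genes. The libraries stood apart: over all barcodes the median mitochondrial share was 4.07% in library 1 and 41.3% in library 2, and the deep cells lay in different clusters, 489 of 508 in cluster 9 against 351 of 514 in cluster 13 and 151 in cluster 5. The libraries shared 81 barcodes, 34 of them among the kept cells and 0 among the deep ones. Alb, the gene for albumin and the defining marker of hepatocytes, was at 39598 and 41681 CPM in the deep cells. Cebpa, the gene targeted in the study, was at 1.42 CPM (0.856 to 2.22, 19 UMIs) in library 1 and 110.3 CPM (103 to 118, 870 UMIs) in library 2. It was lower in library 1 in each depth range of hepatocyte-like droplets. Neither library was named from this difference, since groups were taken from the labels alone.

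RefSeq promoter sequences (GRCm38.p6) were found for 6 of the 10 genes, and the 250 bases before each start were searched on both strands for a C/EBP motif (TTGCNNAA), an NR5A half-site (CAAGGNCA), an HNF4 motif (CAAAGTCCA) and a TATA box (TATAAA). Of all 32851 promoters, 9.56%, 5.53%, 0.384% and 12.4% held them in the same window. The sequences of the 3 genes with a match are shown 5′ to 3′ with the matches in capitals, since these are letters that factors known to control this pathway read:
Akr1d1, chr6:37529923-37530172, plus strand: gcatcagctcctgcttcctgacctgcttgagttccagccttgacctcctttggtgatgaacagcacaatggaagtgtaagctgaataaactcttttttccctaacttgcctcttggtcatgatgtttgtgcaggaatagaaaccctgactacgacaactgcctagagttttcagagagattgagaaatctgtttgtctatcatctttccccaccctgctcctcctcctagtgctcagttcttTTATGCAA
Cyp8b1, chr9:121916306-121916555, minus strand: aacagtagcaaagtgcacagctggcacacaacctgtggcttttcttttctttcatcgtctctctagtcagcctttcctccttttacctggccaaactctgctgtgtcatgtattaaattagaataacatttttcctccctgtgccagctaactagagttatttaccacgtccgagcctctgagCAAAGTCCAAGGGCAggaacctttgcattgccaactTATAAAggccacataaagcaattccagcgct
Nr0b2, chr4:133553126-133553375, plus strand: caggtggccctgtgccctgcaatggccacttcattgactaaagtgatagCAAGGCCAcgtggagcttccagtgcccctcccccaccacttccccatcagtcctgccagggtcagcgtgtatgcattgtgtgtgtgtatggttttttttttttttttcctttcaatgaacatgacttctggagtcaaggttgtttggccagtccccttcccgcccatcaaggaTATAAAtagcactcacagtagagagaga
Akr1d1 held the C/EBP motif on the other strand, from base -8 to -1 counted back from the start. Cyp8b1 held the HNF4 motif from base -67 to -59, which overlaps an NR5A half-site from base -60 to -53, and a TATA box from base -31 to -26. Nr0b2 held an NR5A half-site from base -201 to -194 and a TATA box from base -28 to -23. None of the 4 motifs was found in the windows of Cyp27a1, Hsd3b7 and Nr1h4. The window of Nr1h4 (chr10:89506659-89506908, minus strand) lies before a start inside the gene's annotated span, not before its outermost start. A match is a description of the reference letters and shows no binding.

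In the classical pathway, Cyp7a1 was several times higher in the deep hepatocyte-like cells of library 1, while Cyp8b1 differed less. Cyp7a1 (chr4:6265612-6275633, minus strand, 6 exons), the rate-limiting enzyme, was at 149 CPM (143 to 156, 1995 UMIs) in library 1 and 32.2 CPM (28.4 to 36.4, 254 UMIs) in library 2, a ratio of 4.63 (4.07 to 5.3). Cyp8b1 (chr9:121914356-121916305, minus strand, a single exon), which directs synthesis to cholic acid, was at 198 CPM (191 to 206, 2649 UMIs) and 136 CPM (128 to 144, 1070 UMIs), a ratio of 1.46 (1.36 to 1.57). Intervals were separate for both genes, and only Cyp7a1 passed 2-fold. At a clustering resolution of 0.5 the log2 ratio of Cyp7a1 was 0.94, short of 2-fold. The direction of Cyp8b1 was the other way in shallower droplets, with an interval that included 1 in the shallowest: the ratio was 0.867 (0.71 to 1.06), 0.706 (0.597 to 0.837) and 0.77 (0.636 to 0.931) in hepatocyte-like droplets from 500, 1000 and 2000 UMIs up to the next of 1000, 2000 and 5000 UMIs, and 0.843 (0.769 to 0.925) in droplets of at least 5000 UMIs over the mitochondrial limit of 25%. It also turned to log2 ratios of -1.66 and -1.49, under a mitochondrial limit of 10% and a clustering resolution of 0.5, which kept 5 and 20 of the 508 deep cells of library 1 and so measured other cells.

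In the deep cells described here, the widest gap among the 10 genes was in the alternative pathway. Cyp7b1 (chr3:18071950-18243338, minus strand, 6 exons), which hydroxylates oxysterols, was at 984 CPM (967 to 1001, 13149 UMIs) in library 1 and 89.4 CPM (82.9 to 96.2, 705 UMIs) in library 2, a ratio of 11 (10.2 to 11.9). From the highest ratio down, Cyp7b1 was number 9 and Cyp7a1 number 30 of the 6800 genes compared. Cyp27a1 (chr1:74713574-74737892, plus strand, 9 exons) was at 66.4 CPM (62.1 to 70.9, 887 UMIs) and 61.5 CPM (56.1 to 67.2, 485 UMIs), with overlapping intervals and a ratio of 1.08 (0.965 to 1.21). Its ratio was 0.68 (0.57 to 0.81) in hepatocyte-like droplets from 1000 to under 2000 UMIs and 1.29 (0.95 to 1.73) in those from 5000 to under 15000. In droplets of at least 5000 UMIs over the mitochondrial limit it was 0.77 (0.70 to 0.85). Under the mitochondrial limit of 10%, which kept 5 of the 508 deep cells of library 1, the log2 ratio of Cyp7b1 fell to 0.84, short of 2-fold. Cyp7a1 still passed 2-fold there, and Cyp8b1, Slc27a5 and Cyp27a1 (-0.88) also stood further apart than Cyp7b1. Cyp7b1 overlaps the small nuclear RNA model Gm23686 on its own strand, so its count is uncertain.

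Both ring-step genes were higher in library 2. Akr1d1 (chr6:37530173-37568815, plus strand, 9 exons), the reductase that sets the bend of the steroid ring, was at 36.6 CPM (33.4 to 40) in library 1 and 99.7 CPM (92.8 to 107) in library 2, higher in library 2 by 2.72-fold (2.43 to 3.06). It was higher by 1.75, 1.71 and 1.59-fold in droplets from 500, 1000 and 2000 UMIs up to the next bound and by 1.79-fold in those of at least 5000 UMIs over the mitochondrial limit, all short of 2-fold, and 3 settings of the cell filter and clustering ended its call. Hsd3b7 (chr7:127800604-127803802, plus strand, 3 to 7 exons), which oxidises the ring before Akr1d1 acts, was at 74.5 CPM (70 to 79.3) and 146 CPM (138 to 155), higher in library 2 by 1.97-fold (1.8 to 2.14). It was higher by 1.25-fold (1.01 to 1.57) in cells from 5000 to under 15000 UMIs and by 2.04-fold (1.85 to 2.25) in those of at least 15000. Hsd3b7 overlaps the protein-coding model Gm49388 on its own strand and 9430064I24Rik on the other, and Akr1d1 overlaps the processed pseudogene Gm7463 on its own strand, so both counts are uncertain.

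Conjugation genes were nearly level in the deep cells. Slc27a5 (chr7:12988346-12998192, minus strand, 3 to 10 exons), which couples bile acids to coenzyme A, was at 245 CPM (237 to 254) in library 1 and 244 CPM (233 to 255) in library 2, a ratio of 1.0 (0.949 to 1.06). Slc27a5 passed 2-fold toward library 2 under the limit of 10% and at resolution 0.5, with log2 ratios of -1.62 and -1.28. Baat (chr4:49489422-49506557, minus strand, 3 to 4 exons), which joins them to taurine or glycine, was at 155 CPM (149 to 162) and 141 CPM (133 to 149.7), a ratio of 1.1 (1.02 to 1.19). At resolution 0.5 the log2 ratio of Baat was 0.88, short of 2-fold.

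The receptors differed by less than 2-fold and in opposite directions. Nr1h4 (chr10:89454234-89533585, minus strand, 9 to 10 exons), the bile acid receptor, was at 123 CPM (117 to 129) in library 1 and 94.8 CPM (88.2 to 102) in library 2, a ratio of 1.29 (1.19 to 1.41). Nr0b2 (chr4:133553376-133556536, plus strand, 2 exons), a repressor that FXR induces, was at 29.6 CPM (26.8 to 32.7) and 46.5 CPM (41.9 to 51.5), higher in library 2 by 1.57-fold (1.36 to 1.81). The direction of Nr0b2 was not stable, with a log2 ratio of 0.40 at a clustering resolution of 0.5 and a ratio of 1.06 (0.725 to 1.58) in hepatocyte-like droplets from 500 to under 1000 UMIs. That resolution kept 20 of the 508 deep cells of library 1 and so measured other cells. From 1000, 2000, 5000 and 15000 UMIs up to the next bound, the ratio was 0.83, 0.899, 0.765 and 0.648. The interval included 1 in all but the last of these.

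By the rule of at least 2-fold with separate intervals, 2 of the 10 genes were higher in library 1 (Cyp7a1 and Cyp7b1), where 2.41% of all genes compared were, and 1 was higher in library 2 (Akr1d1), where 2.16% were. This count turned to 1 and 2 under the mitochondrial limit of 10% (Cyp7a1 against Cyp8b1 and Slc27a5) and at resolution 0.5 (Cyp7b1 against Cyp8b1 and Slc27a5), and to 2 and 0 without a filter on cells. The median log2 ratio was 0.12 over the 10 genes and 0.02 over the 6800. In sum the 10 genes stood at 2062 CPM (2038 to 2086) in library 1 and 1092 CPM (1069 to 1115) in library 2, and without Cyp7b1 at 1078 CPM (1060.4 to 1096) and 1002 CPM (980.1 to 1024). Since the libraries differed in depth, cells from 5000 to under 15000 UMIs were also compared, where the ratio was 5.99 (4.48 to 8.06) for Cyp7a1 and 11.7 (9.96 to 13.8) for Cyp7b1. The ratio of Cyp7a1 was smaller in shallower droplets, at 1.83 (1.38 to 2.45) from 500, 2.09 (1.61 to 2.75) from 1000 and 2.77 (2.05 to 3.8) from 2000 UMIs up to the next bound. In the 830 and 1213 droplets of at least 5000 UMIs over the mitochondrial limit it was 1.74 (1.53 to 1.97), short of 2-fold, while that of Cyp7b1 was 6.98 (6.53 to 7.47). Genotype, mouse and preparation cannot be told apart as sources of these differences.

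**Figure D1:**
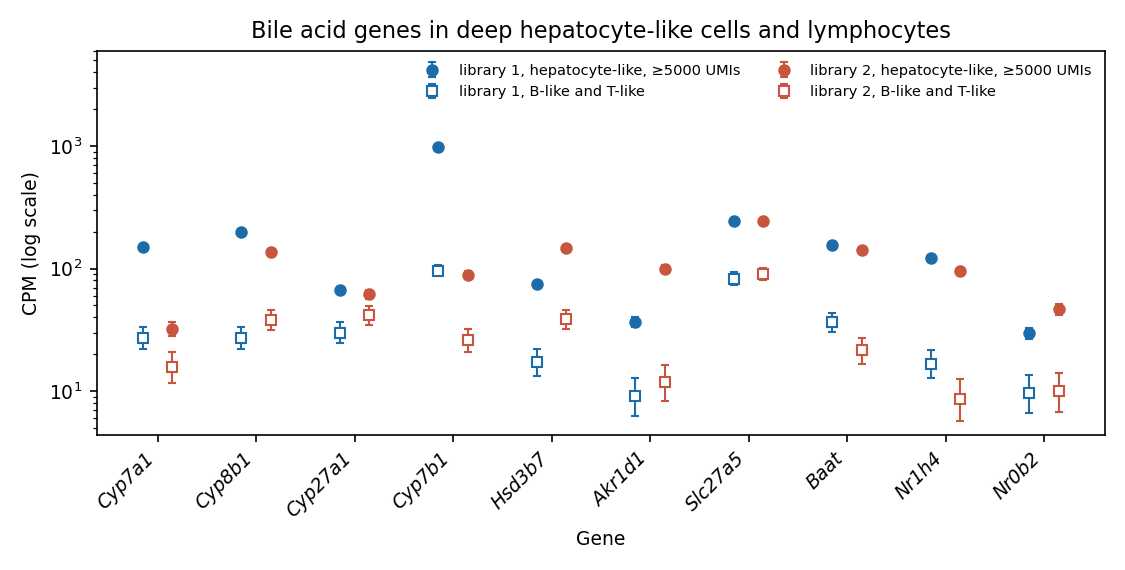
CPM (log scale) of the 10 genes in deep hepatocyte-like cells (filled circles) and in B-like and T-like cells (open squares) of each library, with exact Poisson 95% intervals. Cyp7b1 stands at 984 CPM in library 1 and 89.4 CPM in library 2, while the circles of Slc27a5 nearly coincide.

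Of the UMIs of Cyp7a1, Cyp8b1, Cyp27a1 and Cyp7b1, the 4 P450 genes, the classical genes Cyp7a1 and Cyp8b1 made up 24.9% (24.2% to 25.5%, 4644 of 18680 UMIs) in deep cells of library 1 and 52.7% (50.7% to 54.6%, 1324 of 2514 UMIs) in those of library 2. This classical share was lower in library 1 although both classical genes were higher there, as Cyp7b1 was higher still. Of Cyp7a1 and Cyp7b1 alone, Cyp7a1 made up 13.2% (12.6% to 13.7%) and 26.5% (23.7% to 29.4%). With Cyp7b1 left out the order turned, and Cyp7a1 and Cyp8b1 made up 84% (83% to 84.9%) in library 1 and 73.2% (71.1% to 75.2%) in library 2 of the UMIs of the 3 genes left, as Cyp8b1 did of Cyp8b1 and Cyp27a1 (74.9% and 68.8%). The lower classical share of library 1 thus rests on Cyp7b1. The share compares libraries and does not say which pathway is larger.

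The classical share was lower in library 1 in all 5 ranges of depth. From 500, 1000, 2000, 5000 and 15000 UMIs up to the next of these bounds, it was 30.7%, 30.6%, 30.9%, 28.2% and 24.6% in library 1, and 47%, 43.9%, 48.8%, 55.8% and 51.3% in library 2. In B-like and T-like cells, lymphocytes that do not make bile acids, it was 30.1% (26.6% to 33.9%) and 44.4% (39.4% to 49.6%), near the values of the shallow droplets.

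Shallow hepatocyte-like droplets also held few UMIs of these genes. Those from 500 to under 1000 UMIs held 1.26 and 0.904 UMIs of the 10 genes each, those from 1000 to under 2000 held 1.75 and 1.67, and lymphocytes held 1.7 and 1.34, against 54.2 and 16.7 in deep cells. Per UMI, however, the genes stood at 1547 CPM and 1231 CPM in the droplets from 500 to under 1000 UMIs and at 353 CPM and 303 CPM in lymphocytes. How much of the shallow signal is free RNA was not tested. Cyp7b1 was higher in library 1 at each depth, 3.47-fold from 500 to under 1000 UMIs and 3.69-fold in lymphocytes, against 11-fold in deep cells.

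Deep cells were then set against droplets under 2000 UMIs of the same library. In library 1 only Cyp7b1 of the 10 genes passed 2-fold, at 2.76-fold higher in deep cells, where 20.7% of all genes were higher and 5.89% lower. In library 2 none of the 10 did, where 17.4% were higher and 1.72% lower.

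**Figure D2:**
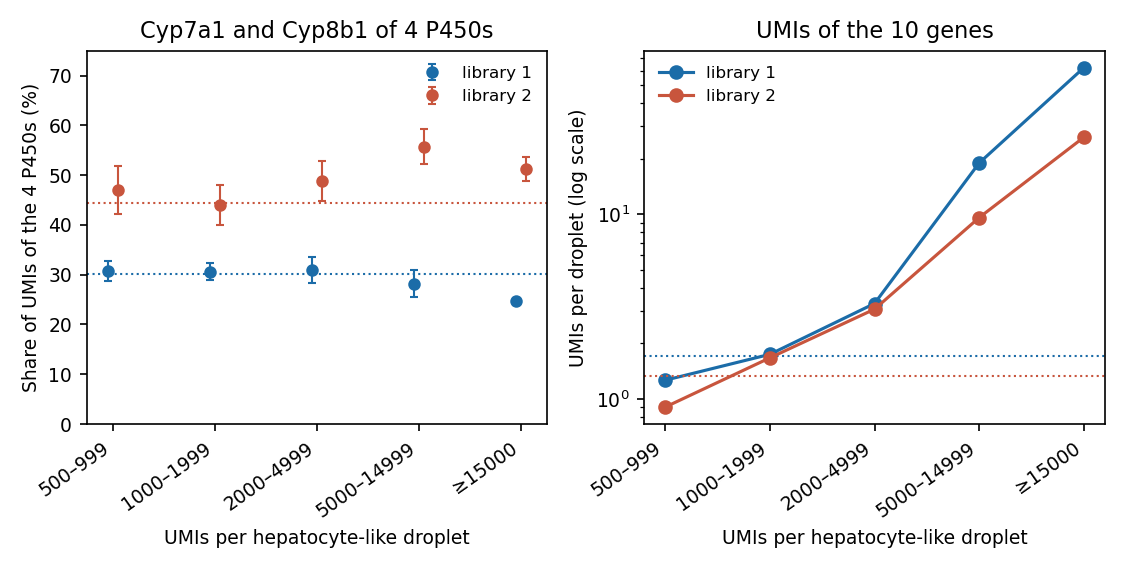
Left, share of Cyp7a1 and Cyp8b1 in the UMIs of the 4 P450 genes (%) by UMIs per hepatocyte-like droplet, with exact binomial 95% intervals; right, UMIs of the 10 genes per droplet on a log scale. Dotted lines are B-like and T-like cells of the same library, and the droplets from 500 to under 1000 UMIs lie near them on the left and below them on the right.

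Against lymphocytes, deep cells held more of nearly every gene. All 10 genes passed 2-fold in library 1, where 18.4% of all genes compared were higher in deep cells and 47.0% lower, and 9 did in library 2, where 19.0% were higher and 46.4% lower. The exception was Cyp27a1 in library 2, at 61.5 CPM against 41.5 CPM (34.6 to 49.3) in lymphocytes. Cyp7a1 in library 2 was at 32.2 CPM against 15.7 CPM (11.6 to 20.8).

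Cells were also thinned to 5000 UMIs each, so that shares of cells with a UMI could be compared at 1 depth. A Cyp7a1 UMI was then found in 41.9% of hepatocyte-like and 8.81% of T-like cells in library 1, and in 11.9% (9.2% to 15%) and 8.0% (3.9% to 14.2%) in library 2. Intervals overlapped in library 2, where Cyp7a1 in hepatocyte-like cells was not separate from T-like cells at this depth, nor from B-like, endothelial-like, erythroid-like, plasma-like, cholangiocyte-like or Kupffer or macrophage-like cells, the last at 6.54% (4.09% to 9.83%), though it was from plasmacytoid dendritic-like cells (2.86% (0.593% to 8.12%)). Cyp7b1 was found in 89.6% and 28.2% of hepatocyte-like and 29.5% and 11.2% of T-like cells. Thinning left out 7509 and 3214 shallower hepatocyte-like and 320 and 394 T-like cells, and unthinned 68.5% and 19.3% of deep cells held a Cyp7a1 UMI.

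Within a library, Cyp7a1 and Cyp7b1 were uneven between deep cells. The tenth of cells with the most Cyp7a1 UMIs held 43.6% of them in library 1 and 81.5% in library 2, where 415 of 514 cells had none. At 5000 UMIs per cell, the variance over the mean was 1.85 and 1.94 for Cyp7a1, against medians of 1.07 and 1.04 over genes of a like mean. For Cyp7b1 it was 4.96 and 2.22, against 1.42 and 1.07. Cyp8b1 stood at 1.69 and 1.26, and the other 7 genes between 0.994 and 1.28. No gene of the 7220 ranked followed any of the 10 over cells with a Spearman correlation of 0.3 or more in both libraries. Correlations were taken at 5000 UMIs per cell, where Cyp7a1 averaged 0.787 and 0.16 UMIs and Nr0b2 0.146 and 0.198. Such low counts limit how high a correlation can be, so shared variation is not excluded.

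To place the genes along the lobule, deep cells were ordered by a score of pericentral less periportal genes and split into 3 parts of equal size. Cyp7a1 was higher at the pericentral end in both libraries. In library 1 it stood at 109 CPM (100.7 to 119) in the periportal part, 137 CPM in the middle and 221 CPM (206 to 237) in the pericentral part, a ratio of 2.02 (1.81 to 2.25). In library 2 it stood at 19.6 CPM (15.2 to 24.9), 18.5 CPM and 74 CPM (62.2 to 87.4), a ratio of 3.77 (2.8 to 5.13). Even the pericentral part of library 2 lay below the periportal part of library 1.

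Cyp27a1 and Hsd3b7 had the same order in both libraries. Pericentral over periportal, Cyp27a1 had ratios of 1.67 (1.42 to 1.97) and 2.06 (1.65 to 2.59), and Hsd3b7 of 2.1 (1.8 to 2.45) and 1.52 (1.31 to 1.75). Cyp7b1 pointed in opposite directions, with 1.23 (1.18 to 1.29) in library 1 and 0.69 (0.551 to 0.86) in library 2, as did Cyp8b1, with 1.14 (1.03 to 1.25) and 0.841 (0.712 to 0.991). Akr1d1 was higher at the pericentral end in library 1, with 1.95 (1.55 to 2.45), and had 1.03 (0.854 to 1.23) in library 2. Slc27a5 was level in library 1, with a ratio of 0.982 (0.90 to 1.07), and lower at the pericentral end in library 2, with 0.651 (0.573 to 0.738).

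In library 1, 2 of the 10 genes passed 2-fold toward the pericentral end (Cyp7a1 and Hsd3b7), beside 0.766% of all genes compared, and 0 toward the periportal end, beside 0.309%. In library 2, 2 did (Cyp7a1 and Cyp27a1), beside 1.81%, and 0 the other way, beside 1.59%. With the cells split into 2 parts instead, Cyp7a1 and Hsd3b7 in library 1 and Cyp27a1 in library 2 stayed under 2-fold, with log2 ratios of 0.86, 0.83 and 0.64. Of the UMIs of Cyp7a1 and Cyp7b1, Cyp7a1 made up 18.4% (14.5% to 22.7%) in the periportal and 55.2% (48.8% to 61.4%) in the pericentral part of library 2, and 11.2% and 17.1% in library 1. The classical share of the 4 P450 genes moved less, at 24.2%, 23.5% and 27.1% in library 1 and 54.3%, 48.7% and 55.7% in library 2 from the periportal to the pericentral part, and Cyp8b1 of Cyp8b1 and Cyp27a1 fell from 77.9% to 70.5% and from 75.7% to 56%.

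Among the genes of the score, Cyp2e1 had ratios of 10.8 and 8.08 and Glul, the glutamine synthetase of cells around the central vein, of 4.5 and 16.5, whereas the periportal genes Cyp2f2, Hal and Sds had 0.967, 0.955 and 0.529 in library 1 and 0.671, 0.605 and 0.926 in library 2. Of these genes, Cyp2e1, Glul and Sds set the periportal part of library 1 apart, while Cyp2f2 and Hal were nearly level. Its name thus stands for low pericentral genes more than for high periportal ones. Depth moved with the score, from a median of 32122 UMIs at the periportal to 21551 at the pericentral end in library 1 and from 19500 to 8316 in library 2, and its part in the ratios was not tested. A part is a range of the score, and 79 and 65 cells of library 1 and 86 and 59 of library 2 lay within 0.25 (log2) of its bounds. Deep cells of library 2 lay mostly in clusters 13 and 5 (351 and 151 cells). Over all their cells, these clusters held Cyp7b1 at 119 and 55.9 CPM. Whether the parts differed in cluster make-up was not tested.

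**Figure D3:**
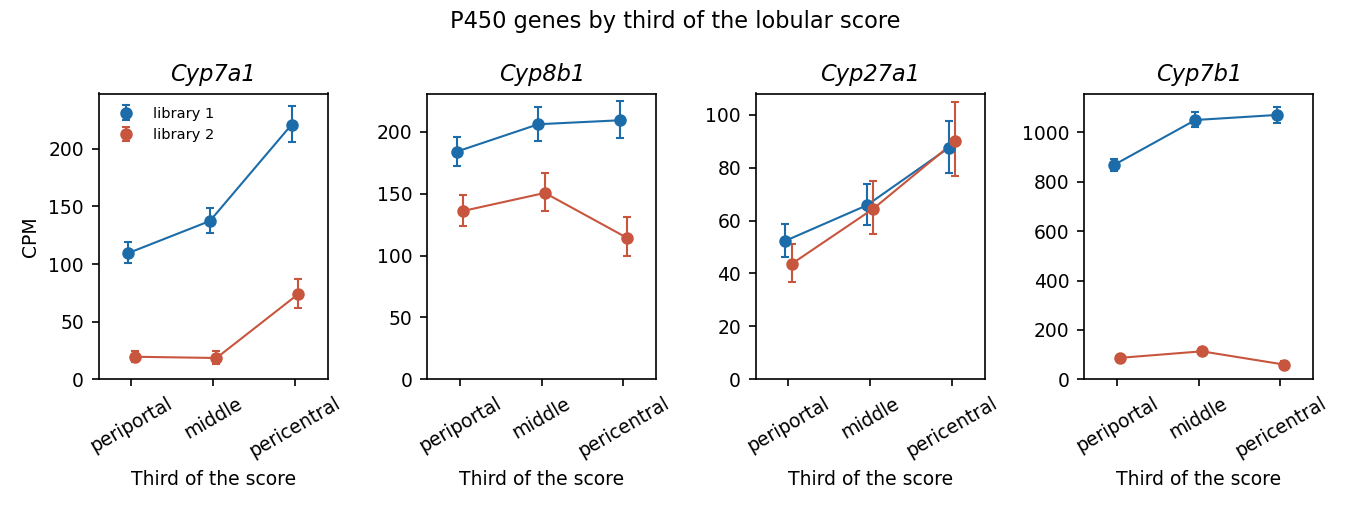
CPM of the 4 P450 genes in the periportal, middle and pericentral part of the lobular score in deep hepatocyte-like cells of each library, with exact Poisson 95% intervals and axes from 0. Cyp7a1 and Cyp27a1 are highest in the pericentral part of both libraries, and Cyp7b1 in library 2 is lowest there, at 60.2 CPM.

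The pair of unnamed clusters with the most Malat1, an RNA kept in the nucleus, was next set beside the deep cells. These clusters split by library: cluster 27 held 77 droplets of library 1 and 1 of library 2, and cluster 21 held 0 and 138, so that values of the libraries come from different clusters and droplets of 1 kind cannot be assumed. There were in all 77 in library 1 and 139 in library 2, with 84014 and 55195 CPM of Malat1 against 1953 and 1276 CPM in deep hepatocyte-like cells, and with medians of 1.68% and 3.29% of UMIs from mitochondrial genes. Cyp7b1 reached 7166 CPM in library 1 and 472 CPM in library 2, a ratio of 15.2 (13.5 to 17.1). Cyp8b1 stood the other way, at 71.2 and 161 CPM. The classical share was 5.68% (4.98% to 6.45%) and 28.3% (25.3% to 31.4%), below that of deep cells in both libraries.

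Against deep cells, 4 of the 10 genes passed 2-fold upward in the Malat1-rich droplets of library 1, beside 46.6% of all genes compared, and 1 downward, beside 11.6%. In library 2, 5 did upward, beside 47.2%, and 0 downward, beside 13.5%, so that the upward counts were near the background. Nr1h4 (79.3 kb, 97.1% intron) was higher by 7.82-fold and 6.4-fold, Cyp7b1 (171 kb, 98.7% intron) by 7.28-fold and 5.28-fold, and Cyp27a1 (24.3 kb, 91.1% intron) by 6.1-fold and 7.25-fold. Cyp8b1, which has no intron, had ratios of 0.359 and 1.19, and Slc27a5 (9.85 kb, 75.2% intron) of 0.714 and 0.696. Length did not order all genes, since Akr1d1 (38.6 kb, 92.5% intron) had 1.45 and 1.37 and Cyp7a1 (10 kb, 58.4% intron) had 2.58 and 6.22. Whether intronic reads were counted is not stated, and their part in these levels was not tested.

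**Figure D4:**
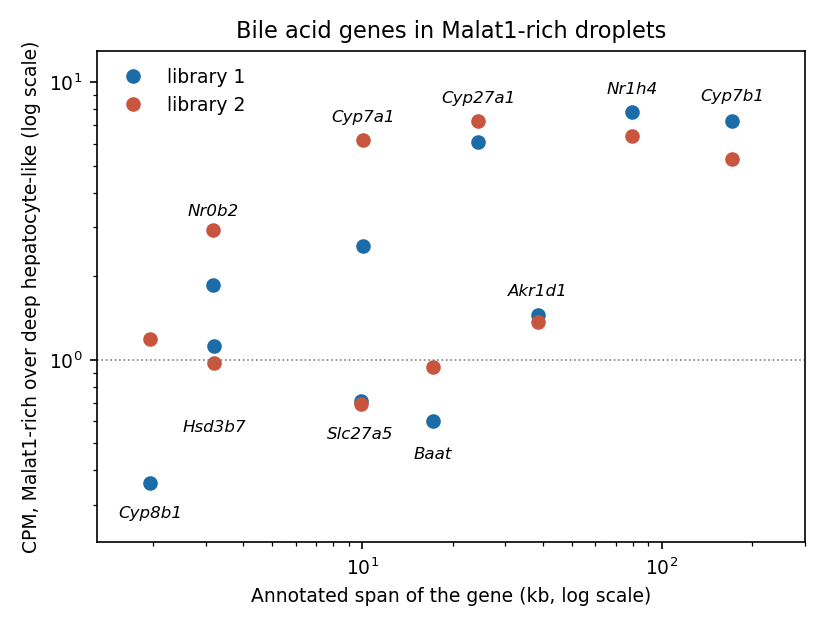
Ratio of CPM in Malat1-rich unnamed droplets to CPM in deep hepatocyte-like cells (log scale) against the annotated span of each gene in kb (log scale), 1 point per gene and library. Nr1h4, Cyp7b1 and Cyp27a1 lie highest in library 1, at 6.1 to 7.82, and Cyp8b1 lies lowest, at 0.359.

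Of the 13 named classes, Nr1h4 was highest in stellate-like cells, the vitamin A storing cells of the liver. It was at 760.5 CPM (638 to 900.1) in 38 cells of library 1 and 1136 CPM (982 to 1308) in 62 cells of library 2, against 12.6 and 6.82 CPM in T-like cells. With cells thinned to 2000 UMIs, 78.6% (59% to 91.7%) of 28 and 93.3% (77.9% to 99.2%) of 30 stellate-like cells held an Nr1h4 UMI, against 16.1% and 13.5% of hepatocyte-like and 3.29% and 1.21% of T-like cells; unthinned it was 89.5% and 88.7%. The stellate markers Dcn (3599.7 and 2826 CPM) and Lrat (406 and 239 CPM) were high in these cells, while Col1a1 had 1 and 9 UMIs. Kupffer genes were also above T-like cells, such as Cd5l (1127 and 519 against 17.7 and 19.2 CPM) and Clec4f (929 and 268 against 14.2 and 15.8 CPM). The Kupffer or macrophage list scored 3.91 in this cluster, next to 5.25 for the stellate list. The part of Kupffer RNA in these stellate-like cells was not tested. Alb was at 10281 and 17459.8 CPM there and 10349 and 12930.3 CPM in T-like cells. Malat1, at 22832 and 37565 CPM against 11454 and 10586 CPM, was also higher, and its part in the level of Nr1h4 was not tested.

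Cyp27a1 was about as high in Kupffer or macrophage-like and plasmacytoid dendritic-like cells as in deep hepatocyte-like cells, though not as in the shallowest hepatocyte-like droplets. In Kupffer or macrophage-like cells it was at 72.4 CPM (62.9 to 83) in library 1 and 72.4 CPM (63.8 to 81.8) in library 2, while plasmacytoid dendritic-like cells held 67.9 CPM (53.7 to 84.8) in library 1 and 72.5 CPM (55.7 to 92.8), against 26.4 and 38.8 CPM in T-like cells. Stellate-like cells, which also carried Kupffer genes, held 73.2 CPM (39 to 125) and 93.2 CPM (53.3 to 151). Some unnamed clusters were higher, such as cluster 31 at 91.7 CPM and the Malat1-rich clusters 27 and 21 at 402 and 449 CPM over both libraries. Hepatocyte-like droplets from 500 to under 1000 UMIs held 120.0 and 114 CPM. Thinned to 5000 UMIs, 35.8% (29.6% to 42.4%) and 29% (24.1% to 34.3%) of Kupffer or macrophage-like and 26.7% and 33.3% of plasmacytoid dendritic-like cells held a Cyp27a1 UMI, against 24.6% and 23.9% of hepatocyte-like and 10.4% (6.45% to 15.6%) and 15.2% (9.41% to 22.7%) of T-like cells. Cyp7a1 was found in 5.68% and 6.54% of the Kupffer or macrophage-like cells.

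Cholangiocyte-like cells, which line the bile ducts, held Nr1h4 at 141 CPM (123 to 161) in 74 cells of library 1 and 103 CPM (67.8 to 149.7) in 28 cells of library 2. Nr0b2 was at 37.2 CPM (28.3 to 48.1) and 80 CPM (49.5 to 122). Alb in these cells was at 24518 and 23033 CPM, between T-like and deep hepatocyte-like cells, and the part of hepatocyte RNA in these values was not tested.

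**Figure D5:**
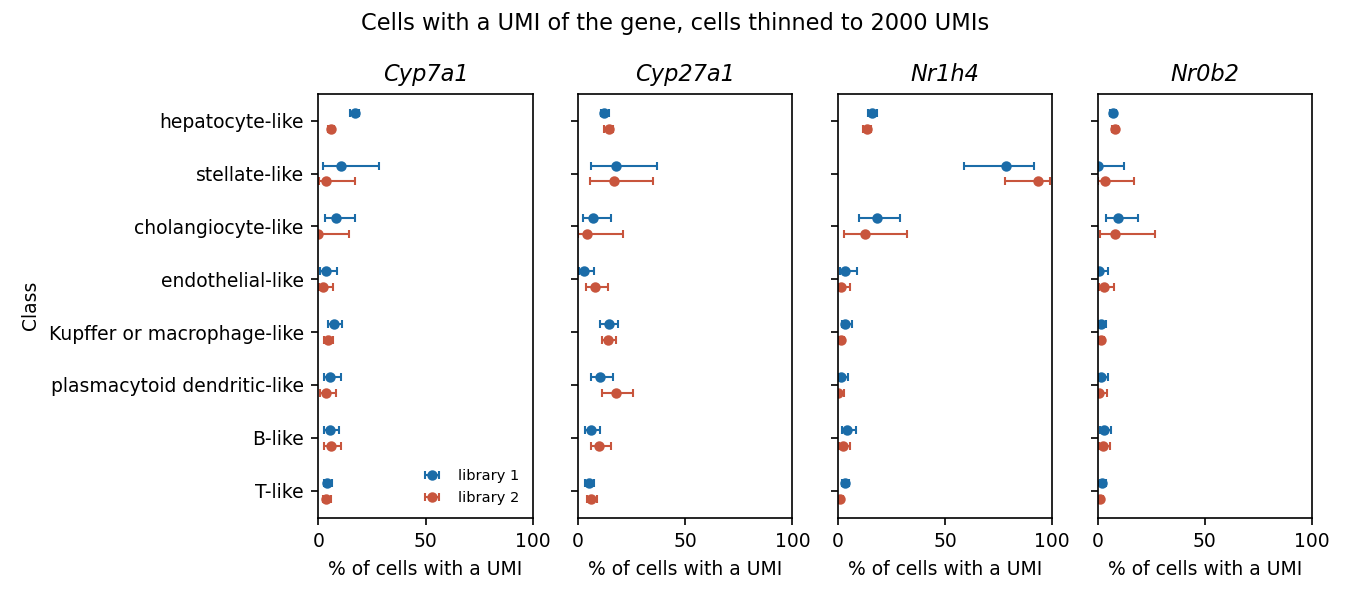
Percent of cells with a UMI of Cyp7a1, Cyp27a1, Nr1h4 and Nr0b2 by cell class and library after thinning to 2000 UMIs per cell, with exact binomial 95% intervals. Nr1h4 lies at 78.6% and 93.3% in stellate-like cells, and Cyp27a1 in Kupffer or macrophage-like cells (14.2% and 14.1%) lies near its hepatocyte-like values (12.3% and 14.2%).

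Among other genes of bile acid metabolism, 24 in all, 20 reached the level to be compared between the deep cells of the libraries, and their median log2 ratio was -0.02. Of these, 1 passed 2-fold: Cyp39a1, an oxysterol hydroxylase, was at 7.48 CPM in library 1 and 15.7 CPM in library 2. Of all genes compared, 2.41% were higher in library 1 and 2.16% in library 2, so that this count was near the background. Among the 9 synthesis genes compared, Cyp2c70, which makes the muricholic acids of mice, stood at 254 and 145 CPM. None of the 8 regulators passed 2-fold, among them Hnf4a (216 and 205 CPM) and Nr5a2 (54.4 and 47.8 CPM), receptors known to act on Cyp7a1 and Cyp8b1. Nor did the 3 transporters compared: Abcb11, the bile salt export pump and a target of FXR (171 and 165 CPM), Abcb4, which moves phospholipid into bile (71.2 and 99.8 CPM), and Slc10a1, which takes up bile salts from blood (241 and 289 CPM). Cyp46a1, Slc51a and Slc51b were under 1 CPM, and Ch25h had 0 UMIs in both libraries, taken to allow up to 3 UMIs or 0.224 and 0.38 CPM.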

How the data were processed

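Whole-number UMI counts per gene and barcode, not normalized, were deposited by the authors for both libraries in 1 table. The submitters' processing notes name Cell Ranger 7.1.0, STAR 2.7.2a, bcl2fastq 2.20.0 and mm10. The annotation and the setting for intronic reads were not stated. Libraries held 17313 and 15003 barcodes with 60048646 and 52355243 UMIs.

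Barcodes with at least 500 UMIs, 200 genes and at most 25% mitochondrial UMIs were kept (17705 of 32316). Counts per cell were scaled to 10000 and logged, and 2000 variable genes without the bile acid genes and Cebpa, 30 components, 15 neighbours and Leiden clustering at resolution 1 gave 34 clusters (Python 3.11.15, scanpy 1.11.5, igraph 0.11.9). A cluster was called "X-like" by the best of 17 marker lists (mean log2 ratio of CPM plus 10 to the lower quartile over clusters of at least 1, at least 3 markers and over 50% of the list raised, the next list at most 0.75 of it, no more markers of another class among the 10 leading genes and, outside hepatocytes, at least 1 of its own there). The last condition and the baseline for the leading genes were set after the clusters were seen, and 10 clusters stayed unnamed. Scrublet marked 0 cells in each library, was taken not to have worked, and doublets were kept.

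The members and gene lists were chosen with earlier results of these data known. Named genes are the 10 members, the listed bile acid genes, Cebpa, Alb, markers, and genes with a correlation of at least 0.3 to a member in both libraries (none). The Malat1-rich droplets were picked after seeing the data. A gene at 10 CPM or more on either side was compared, and called at 2-fold with separate intervals; a count of 0 allows 3 UMIs. On simulated counts of the deep cells of both libraries, 200 of 200 genes changed 4-fold were recovered, which says nothing of changes near 2-fold. Positions are from GENCODE M21 (GRCm38), which may differ from the annotation used for counting.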

Additional observations from a re-analysis of the deposited data

Results flagged for a closer look

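The barcodes over the mitochondrial limit of 25%, 5675 in library 1 and 8886 in library 2, were left out of the cells described as hepatocyte-like, and enter only ratios named as theirs and the settings without a filter or with a limit of 50%. They held the 10 genes at 1161 CPM (1146 to 1177) and 801 CPM (790.1 to 812), above the 353 CPM (334 to 373) and 303 CPM (284 to 323) of B-like and T-like cells. Among those of at least 5000 UMIs the classical share was 17.2% (16.4% to 18%) in library 1 and 42.7% (41% to 44.3%) in library 2, below the deep cells kept.

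The Malat1-rich unnamed droplets held the 10 genes at 9448 CPM (9178 to 9723) in library 1 and 2606 CPM (2487 to 2729) in library 2, above the same lymphocyte level. The first value comes from cluster 27 and nearly all of the second from cluster 21. Without Cyp7b1 the other 9 genes stood at 2282 CPM (2149.9 to 2419) and 2134 CPM (2026 to 2246).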

How the results depend on the processing

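No paired analysis was possible because the 2 libraries carry no replicate numbers, and no library could be left out since each is the only one of its kind. The classical share of deep cells was lower in library 1 under 16 of 17 alternatives and higher with Cyp7b1 left out (84% and 73.2%), and 11 of the values of library 1 and 12 of those of library 2 lay within the counting interval. In library 1 it was 34.7% under a mitochondrial limit of 10%, 32.5% at resolution 0.5, 28.2% in cells from 5000 to under 15000 UMIs, 26% as a mean over cells and 13.2% for Cyp7a1 of Cyp7a1 and Cyp7b1. In library 2 it was 48.8% with no filter on cells, 48.9% with unnamed clusters of hepatocyte score added, 55.8% in cells from 5000 to under 15000 UMIs and 26.5% for Cyp7a1 of Cyp7a1 and Cyp7b1.

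Of 170 log2 ratios between the libraries under alternatives, 158 stayed on their side of 2-fold, 7 passed it and 5 fell short of it. Cyp7a1 ranged from 0.94 to 2.58 and Cyp7b1 from 0.84 to 3.56. At resolution 0.5 Cyp7a1 fell to 0.94 and Akr1d1 to -0.70, and under the limit of 10% Cyp7b1 fell to 0.84 and Akr1d1 to -0.46, while Slc27a5 moved to -1.28 and -1.62 under these 2 settings. Without a filter on cells Akr1d1 stood just inside 2-fold. The first 2 settings kept few of the deep cells of library 1, 20 and 5 of 508. Hsd3b7 passed 2-fold in cells of at least 10000 or 15000 UMIs (-1.01 and -1.03) and in the main deep cluster of each library (-1.08). It stood at -0.32 in cells from 5000 to under 15000 UMIs. Choosing a class per cell without clustering left 0 and 1 deep hepatocyte-like cells and gave no value. Leaving out Cyp7b1, the depth ranges, the main deep clusters and scaling to Alb or without mitochondrial UMIs were chosen after seeing the data. Cyp7a1 in library 2 rests on 254 UMIs.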
